A study of Homo sapiens with 6 samples.

Results

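The hairpins described here target 13 genes that encode the acetyltransferase and core modules of SAGA: KAT2A, KAT2B, TADA2B, TADA3 and CCDC101 in the acetyltransferase module, and TADA1, TAF5L, TAF6L, TAF9, TAF9B, TAF10, TAF12 and SUPT7L in the core. They were taken by gene symbol, not by a cut on measured values, although the genes were chosen with earlier results of these data known. They came to 104 hairpins (8 per gene) of 7293 hairpins against 912 genes seen in the screen. The question of the screen was whether loss of a chromatin regulator changes how leukemic cells respond to azacitidine (AZA), a hypomethylating agent used in myelodysplastic syndrome and acute myeloid leukemia. SKK-1, an established human line of myelodysplastic origin labelled as acute myeloid leukemia, was transduced as 3 cultures with a lentiviral library of shRNAs (hairpins). The AZA group and the untreated group came from the same puromycin-selected cultures, and doses of 0.25 µM were repeated every 2 days in the former. Cells were harvested at 14 days, and the guide strands of the hairpins were amplified from genomic DNA and counted by sequencing.

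Both groups therefore started from the same transduced and selected cultures, and untreated replicate 1, 2 or 3 shares its culture with the AZA replicate of the same number. Whether both parts of a culture held the same hairpins after the split was not tested. The count of a hairpin follows the number of cells that bore it when the culture was harvested. Knockdown of the targets and the starting pool are not analysed here, so a level in the untreated cells cannot be read as loss or gain since transduction. The hairpins were expressed from the viral SFFV promoter in a single cell line.

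SAGA is a transcriptional coactivator assembled from modules with separate tasks. KAT2A (GCN5) and its paralog KAT2B (PCAF) are alternative catalytic subunits that acetylate histone H3, mainly at lysine 9, while the adaptors TADA2B and TADA3 support the activity of the catalytic subunit and CCDC101, now called SGF29, binds methylated lysine 4 of histone H3. The core holds the modules together around an octamer-like fold of TAF proteins, and TAF9, TAF10 and TAF12 are also subunits of TFIID, the general factor that starts transcription by RNA polymerase II. KAT2A has been described as a dependency of acute myeloid leukemia cells.

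A hairpin is named by its target gene and a number, which marks where its site lies along the transcript. Of the 13 genes, guide sequences were held here for CCDC101, which lies at chr16:28553915-28591790 on the plus strand (GRCh38, GENCODE release 44, under the symbol SGF29). Its 8 guides are shown because they let the counts of a reader subunit of the module be set beside the sequences that produced them. Each is the 22-base guide strand, written 5′ to 3′ as DNA, with the seed (bases 2 to 8) in capitals.
CCDC101.207: tGAGAAGTtctgcaatgcggga
CCDC101.229: tTGATCAGctgatggagctctg
CCDC101.280: tGGATGTTcactaagttgtgtt
CCDC101.310: tTCTCTGTctgcatccgctcat
CCDC101.313: tTGTTCTCtgtctgcatccgct
CCDC101.325: tAGGGAGAaatcttgttctctg
CCDC101.400: tTCCGAAGgatgttgcactcag
CCDC101.1115: tTTAATCCcagcacgtcctctg

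All 8 guides were complementary over their full length to the annotated SGF29 transcript. CCDC101.207 and CCDC101.229 bind neighbouring stretches of exon 2, at chr16:28581091-28581112 and chr16:28581113-28581134. CCDC101.280, CCDC101.310 and CCDC101.313 lie in exon 3, at chr16:28584932-28584953, chr16:28584962-28584983 and chr16:28584965-28584986. CCDC101.325 spans the junction of exons 3 and 4, and CCDC101.400 that of exons 4 and 5. These 7 sites are coding, whereas CCDC101.1115 binds the 3′ untranslated region in exon 10, at chr16:28591754-28591775. CCDC101.310, CCDC101.313 and CCDC101.325 overlap each other on the transcript and are not independent of position, although their seeds differ.

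The 6 libraries held 12292575 to 19645459 counts in untreated and 18542022 to 22587662 counts in AZA cells, with a median of 1462.5 to 2391 and 2113.5 to 2377 counts per member hairpin. Values are given as CPM, the count of a hairpin scaled to the total of its library. Where a hairpin had 0 counts, a level of up to 0.153 to 0.244 CPM in untreated and 0.133 to 0.162 CPM in AZA libraries is allowed (3 counts, counting error only). Members made up 1.42% to 1.52% of the untreated and 1.43% to 1.58% of the AZA counts, where an even pool would give 1.43%. Untreated libraries were less alike than AZA libraries, in the members as in the whole pool. The highest and lowest untreated replicate differed by more than 10-fold for 31 of the 104 members (29.8%, against 23.1% of all hairpins), and the AZA replicates did so for 4 (3.85%, against 5.18%). An untreated library was below 1 CPM for 15 members (14.4%, against 8.57% of all hairpins) and an AZA library for 2 (1.92%, against 1.74%).

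No hairpin against the acetyltransferase or core module passed the test between AZA and untreated cells. Of the 104 members, 103 passed the low-count filter, and 0 of them had a Benjamini-Hochberg adjusted p under 0.05 in the edgeR quasi-likelihood test over 7262 hairpins, where 5 hairpins (0.0689%) did. The lowest adjusted p of a member was 0.904. At an unadjusted p under 0.05 there were 4 members, 1 higher and 3 lower in AZA cells, or 3.88% of those tested, and 4.92% of all tested hairpins reached that level. The edgeR exact test gave 6 such members among 398 hairpins and the DESeq2 Wald test 9 among 764, and with the replicate number as a block the quasi-likelihood test gave 7 among 424. None of these fits called a member after adjustment. Without untreated replicate 1, 2 or 3 the members at an unadjusted p under 0.05 numbered 9, 10 and 6, among 585, 557 and 563 hairpins in all. Without AZA replicate 1, 2 or 3 they numbered 2, 1 and 1, among 200, 203 and 198.

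The members' fold changes lay around those of the whole pool. Their median log2 fold change, AZA over untreated, was 0.13 with an interquartile range of -0.35 to 0.51, beside a median of 0.07 over all tested hairpins. There were 56 members on the higher and 47 on the lower side, or 54.4% higher against 53.8% of all hairpins. Both medians turn negative under other scalings of the libraries (TMM, -0.05 for members and -0.10 for all), and the members' median relative to that of all hairpins was 0.06 on library totals, 0.05 with TMM and 0.09 with the replicate block. This small difference depended on single AZA libraries, being 0.0047, -0.0087 and 0.14 without AZA replicate 1, 2 or 3. By culture, the median log2 ratio of the members was 0.24, 0.35 and 0.01 in replicates 1, 2 and 3. The median was -0.04 over the 39 tested hairpins of the acetyltransferase module and 0.14 over the 64 of the core. Over the 24 hairpins against TAF9, TAF10 and TAF12, listed as shared with TFIID, it was 0.09. With the replicate block these medians were 0.32, 0.36 and 0.23, where the acetyltransferase median changed sign. The differences between these modules were not tested.

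The AZA values lay wholly above the untreated ones for 8 members, or 7.77% of those tested, where 9.17% of all tested hairpins did so. They lay wholly below for 5 members, or 4.85%, where 4.31% of all did so. Of the 8 hairpins on the higher side, 5 had an untreated library below 1 CPM, whereas 91 of the 666 such hairpins in the whole pool did. The part of these near-empty untreated libraries in the members' values was not tested.

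Summed over the 8 hairpins of each gene, none of the 13 genes passed the test between the groups. An adjusted p under 0.05 was reached by 0 of 13 members in the edgeR quasi-likelihood test on summed counts, beside 14 of 912 genes (1.54%), and the lowest adjusted p of a member was 0.589. At an unadjusted p under 0.05 there were also 0 of 13 members, beside 112 genes (12.3%). DESeq2's Wald test on the sums called 0 members and 52 genes. The 95% intervals of the log2 fold changes of the 13 sums reached at most from -0.74 (TAF10) to 0.98 (TADA3). These outer bounds come from different genes, and other intervals were narrower (TADA1, -0.20 to 0.40). Changes within a gene's own interval were not resolved at this replication. All 13 genes had hairpins on both sides of 0, as had 98.2% of the 912 genes, and 6 or more tested hairpins on the same side were seen for 3 members (23.1%) and for 34.3% of all genes.

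KAT2A, a catalytic subunit, lies at chr17:42113111-42121367 on the minus strand. Another annotated coding gene overlaps it on the same strand, and which KAT2A hairpins bind both transcripts was not examined. Its hairpins summed to 996, 987 and 1252 CPM in untreated replicates 1 to 3 and to 1090, 779 and 1076 CPM in AZA replicates 1 to 3. The groups overlapped, with a log2 fold change of the sum of -0.14 ± 0.22 (SE, 3 libraries per group; edgeR adjusted p = 0.865). Over its 8 hairpins the mean log2 fold change was 0.47 ± 1.51 (SD over hairpins), but the median was -0.23, and 3 were higher and 5 lower. The mean was 1.14 with the replicate block. For each gene, a second mean left out the hairpin whose log2 fold change was largest in size, in either direction. It turned negative for 6 of the 11 genes with a positive mean, namely KAT2A, CCDC101, TADA1, TAF5L, TAF9B and TAF10. For TADA2B the hairpin left out was on the lower side, and the mean rose from 0.26 to 0.50. Leaving out a large positive value lowers a positive mean in any gene, and the share over all genes was not counted.

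The positive mean of KAT2A rested on KAT2A.2252, without which the mean over the remaining 7 hairpins was -0.0043. This hairpin stood at 17.7, 0.0554 and 0.0509 CPM in untreated and at 39.2, 93.5 and 114 CPM in AZA cells, where the 2 low untreated values are single reads. AZA was higher in 3 of 3 cultures and the groups did not overlap, with a log2 fold change of 3.79 ± 1.91 (SE), an unadjusted p of 0.0712 and an edgeR adjusted p of 0.998. In the fit with the block its log2 fold change was 8.67 and the adjusted p 0.813.

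The other KAT2A hairpins were more even. KAT2A.2054 showed the opposite pattern, with 125, 141 and 111 CPM in untreated and 80.7, 32.3 and 99.3 CPM in AZA cells. The groups again did not overlap, at a log2 fold change of -0.83 ± 0.70 (edgeR adjusted p = 0.999). KAT2A.2069, whose site overlaps that of KAT2A.2054, had 100, 90.3 and 150 CPM in untreated and 91.3, 66.3 and 92.1 CPM in AZA cells. KAT2A.3073, the most abundant hairpin of the gene, had 398, 295 and 553 CPM in untreated and 302, 296 and 363 CPM in AZA cells. For both the groups overlapped, at log2 fold changes of -0.45 and -0.37.

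Overlapping sites did not give equal values. KAT2A.2521 and KAT2A.2522 are shifted by 1 base and stood at 115, 120 and 197 CPM and at 224, 236 and 185 CPM in untreated cells. In AZA cells they stood at 205, 95.8 and 91.8 CPM and at 222, 97.2 and 198 CPM. Their log2 fold changes were -0.13 and -0.32, both within the spread of the replicates. KAT2A.2516, which overlaps both, had 7.24, 62.5 and 16.6 CPM in untreated and 76.0, 69.1 and 54.0 CPM in AZA cells, a log2 fold change of 1.20 ± 1.12 on overlapping groups. KAT2A.815 had 9.27, 41.5 and 39.6 CPM in untreated and 72.6, 28.3 and 63.9 CPM in AZA cells, at 0.87 ± 1.13. Both of the latter had their lowest value in untreated replicate 1.

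KAT2B, the paralogous catalytic subunit at chr3:20040446-20154404 on the plus strand, was among the most abundant targets, its untreated sum lying at the 95.5th percentile of the 912 genes. The sums were 1874, 1754 and 2230 CPM in untreated and 1592, 1994 and 1395 CPM in AZA cells, with a log2 fold change of -0.23 ± 0.17 (SE; edgeR adjusted p = 0.599). AZA was lower in cultures 1 and 3 and higher in culture 2. No hairpin of the gene varied by more than 10-fold among untreated or among AZA replicates, and the mean over hairpins was -0.17 ± 0.55 (SD), with 3 higher and 5 lower.

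KAT2B.1506 had the smallest p of all 103 tested members. It stood at 520, 518 and 614 CPM in untreated and at 279, 407 and 235 CPM in AZA cells. Every AZA value lay below every untreated value, the log2 fold change was -0.84 ± 0.31 (SE), the unadjusted p 0.0185 and the edgeR adjusted p 0.904. KAT2B.1792 was lower in 3 of 3 cultures but with overlapping groups, at 118, 113 and 107 CPM in untreated and 116, 63.3 and 20.1 CPM in AZA cells.

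Other KAT2B hairpins leaned either way within the spread of their replicates. On the lower side, KAT2B.750 had 132, 188 and 140 CPM in untreated and 93.2, 201 and 48.0 CPM in AZA cells. KAT2B.2438 had 335, 300 and 281 CPM in untreated and 226, 382 and 148 CPM in AZA cells. KAT2B.2717 had 369, 155 and 517 CPM in untreated and 280, 269 and 240 CPM in AZA cells. In KAT2B.750 and KAT2B.2438, AZA replicate 2 was the highest of the AZA values and exceeded its untreated partner. On the higher side, KAT2B.821 went from 92.4, 200 and 196 CPM to 181, 292 and 198 CPM. KAT2B.2782 went from 123, 103 and 179 CPM to 231, 151 and 209 CPM, and like KAT2B.821 was higher in 3 of 3 cultures. KAT2B.3613 went from 185, 177 and 197 CPM to 185, 229 and 297 CPM. The log2 fold changes of these 7 hairpins ran from -0.76 (KAT2B.1792) to 0.55 (KAT2B.2782), and each had an edgeR adjusted p of 0.999.

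TADA2B, the adaptor specific to SAGA, had sums of 1016, 1330 and 559 CPM in untreated and 1198, 1054 and 1269 CPM in AZA cells. The log2 fold change of the sum was 0.28 ± 0.26 (edgeR adjusted p = 0.739), and 6 hairpins were higher and 2 lower. This value depended on the untreated libraries, being 0.00096 without untreated replicate 3 and 0.58 without untreated replicate 2. The hairpin with its smallest p, TADA2B.1092, ran against that majority, at 162, 308 and 26.8 CPM in untreated and 41.3, 75.5 and 65.3 CPM in AZA cells. Its groups overlapped through untreated replicate 3, at a log2 fold change of -1.45 ± 0.83.

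TADA3, an adaptor that SAGA shares with the related ATAC complex, was among the least abundant targets (13.7th percentile of untreated sums). Its sums were 882, 494 and 536 CPM in untreated and 829, 1014 and 629 CPM in AZA cells, at a log2 fold change of 0.37 ± 0.29 (edgeR adjusted p = 0.639). TADA3.1397 stood at 87.8, 13.6 and 31.4 CPM in untreated and at 121, 256 and 91.2 CPM in AZA cells, where every AZA value exceeded every untreated value. Its log2 fold change was 1.82 ± 0.84, with an unadjusted p of 0.0512 and an edgeR adjusted p of 0.994. TADA3.928 likewise did not overlap, with 96.6, 79.8 and 118 CPM in untreated and 142, 121 and 183 CPM in AZA cells.

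TADA3.940 was the member left out by the filter. It had 0 counts in all 3 untreated libraries and 0, 1 and 25 counts in AZA replicates 1 to 3. The hairpin was thus close to absent from the pool, and its counts came almost entirely from 1 library, so no fold change is given.

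CCDC101, the reader subunit whose guides are shown above, had sums of 931, 604 and 1149 CPM in untreated and 1004, 847 and 792 CPM in AZA cells. The log2 fold change of the sum was -0.02 ± 0.25 (95% interval -0.55 to 0.50; edgeR adjusted p = 0.981), and 3 hairpins were higher and 5 lower. The mean over hairpins was 0.02 ± 0.62 (SD), 0.69 with the replicate block and -0.13 without CCDC101.207. Of its 8 hairpins, 5 varied by more than 10-fold among the untreated replicates and 0 among the AZA replicates.

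In exon 2, CCDC101.207 stood at 0.813, 62.5 and 1.78 CPM in untreated and at 60.6, 46.0 and 31.0 CPM in AZA cells. CCDC101.229, which binds the next 22 bases, stood at 83.2, 103 and 0.356 CPM in untreated and at 73.1, 24.8 and 57.7 CPM in AZA cells. The low untreated libraries thus differed between these neighbours, replicates 1 and 3 for the first and replicate 3 alone for the second. Their log2 fold changes were 1.08 ± 1.59 and -0.27 ± 1.36.

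In exon 3, CCDC101.280 had 281, 186 and 109 CPM in untreated and 182, 142 and 167 CPM in AZA cells. The overlapping CCDC101.310 and CCDC101.313 had 25.1, 12.9 and 210 CPM and 63.6, 7.93 and 163 CPM in untreated cells. In AZA cells they had 91.5, 103 and 11.5 CPM and 13.2, 96.7 and 31.8 CPM. Both were highest in untreated replicate 3 and, among AZA replicates, in replicate 2. CCDC101.325, which shares part of its site with both, was higher in 3 of 3 cultures, with 84.0, 182 and 145 CPM in untreated and 218, 264 and 174 CPM in AZA. It had the smallest p of the gene, at a log2 fold change of 0.67 ± 0.48 and an edgeR adjusted p of 0.999, whereas CCDC101.310 and CCDC101.313 were at -0.27 ± 1.14 and -0.73 ± 1.16.

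CCDC101.400, over the junction of exons 4 and 5, had 91.1, 32.7 and 148 CPM in untreated and 127, 111 and 113 CPM in AZA cells. CCDC101.1115, the hairpin against the 3′ untranslated region, had 301, 17.0 and 370 CPM in untreated and 238, 60.5 and 205 CPM in AZA cells. Replicate 2 was the lowest of its group in both treatments for CCDC101.1115, and the log2 fold changes of the pair were 0.37 ± 0.71 and -0.45 ± 0.85. Coding and untranslated sites could not be compared with a single hairpin of the latter kind.

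Among the core subunits, TADA1 was the most abundant target, at the 97.4th percentile of untreated sums. The sums were 1755, 2402 and 2150 CPM in untreated and 2319, 2365 and 2086 CPM in AZA cells, at a log2 fold change of 0.10 ± 0.14 (edgeR adjusted p = 0.849). Its interval, -0.20 to 0.40, was the narrowest of the 13 genes. TADA1.748, with the smallest p of the gene, had 48.0, 131 and 50.04 CPM in untreated and 125, 145 and 209 CPM in AZA cells. AZA was higher in 3 of 3 cultures although the groups overlapped, at 1.07 ± 0.66 on the log2 scale.

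TAF5L, a SAGA-specific WD40-repeat paralog of the TFIID subunit TAF5, was the only gene of the 13 whose sums did not overlap between the groups. How many of all 912 genes did so was not counted. The TAF5L sums were 633, 623 and 674 CPM in untreated and 755, 784 and 943 CPM in AZA cells, higher in 3 of 3 cultures. The log2 fold change was 0.36 ± 0.25 (SE), with an unadjusted p of 0.164 and an edgeR adjusted p of 0.589. The gene lay at the 14.7th percentile of untreated sums, and the mean over its hairpins was 0.30 ± 1.5 (SD), 1.30 with the replicate block and -0.08 without TAF5L.581.

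The hairpins against TAF5L spanned the widest range of fold changes of the 13 genes. TAF5L.696 stood at 57.5, 194 and 98.0 CPM in untreated and at 14.2, 12.9 and 38.7 CPM in AZA cells, at a log2 fold change of -2.41 ± 0.93 (unadjusted p = 0.0243, edgeR adjusted p = 0.925). TAF5L.581 stood at 33.5, 0.665 and 7.84 CPM in untreated and at 66.4, 102 and 167 CPM in AZA cells, at 3.00 ± 1.26 (unadjusted p = 0.0359, edgeR adjusted p = 0.994). Neither pair of groups overlapped, and the directions were opposite. TAF5L.701, whose site is shifted by 5 bases from that of TAF5L.696, averaged 176 CPM in untreated and 182 CPM in AZA cells, where TAF5L.696 averaged 116 and 21.9 CPM.

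TAF6L, the SAGA-specific paralog of TAF6, had sums of 1058, 794 and 598 CPM in untreated and 985, 1202 and 818 CPM in AZA cells. The log2 fold change of the sum was 0.29 ± 0.25 (edgeR adjusted p = 0.692), with 4 hairpins higher and 4 lower. TAF6L.356 had the smallest p, with 76.0, 114 and 63.8 CPM in untreated and 76.0, 302 and 185 CPM in AZA cells. TAF6L.656 did not overlap, with 48.6, 82.3 and 72.3 CPM in untreated and 127, 121 and 196 CPM in AZA cells. Their log2 fold changes were 1.15 ± 0.64 and 1.13 ± 0.64, each with an edgeR adjusted p of 0.999.

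SUPT7L, a core subunit with a histone fold that is not found in TFIID, had sums of 1116, 1366 and 1332 CPM in untreated and 1379, 1623 and 1284 CPM in AZA cells. The log2 fold change was 0.17 ± 0.17 (edgeR adjusted p = 0.772). Its mean over hairpins was 0.50 ± 0.94 (SD), or 0.69 with the replicate block. SUPT7L.604 contributed most to it, at 40.0, 0.388 and 8.30 CPM in untreated and 154, 71.1 and 46.8 CPM in AZA cells. The groups did not overlap, and the log2 fold change was 2.48 ± 1.39 (unadjusted p = 0.101).

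Of TAF9, TAF10 and TAF12, the histone-fold TAFs listed here as shared with TFIID, none had a sum that left the spread of its replicates. TAF9 had 878, 915 and 1567 CPM in untreated and 1039, 1166 and 1320 CPM in AZA cells, at a log2 fold change of 0.07 ± 0.23. TAF12 had 1567, 1519 and 1500 CPM in untreated and 1632, 1509 and 1297 CPM in AZA cells, at -0.05 ± 0.16. TAF10 had 706, 517 and 701 CPM in untreated and 675, 468 and 615 CPM in AZA cells, at -0.13 ± 0.29. AZA was lower for TAF10 in 3 of 3 cultures, at log2 ratios of -0.065, -0.145 and -0.190 in replicates 1 to 3. This was less than the spread within each group, which includes differences between cultures. With the replicate block the TAF10 sum stood at -0.13 (edgeR adjusted p = 0.872). Without the block the edgeR adjusted p for TAF9, TAF12 and TAF10 were 0.922, 0.922 and 0.897.

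Single hairpins of these TAFs differed more than the sums. TAF9.495 was lower in 3 of 3 cultures without overlap, with 169, 190 and 352 CPM in untreated and 94.2, 124 and 98.0 CPM in AZA cells. Its log2 fold change was -1.17 ± 0.50, with an unadjusted p of 0.0379 and an edgeR adjusted p of 0.994. TAF9.256 ran the other way, from 1.14, 0 and 22.8 CPM to 44.7, 34.6 and 59.7 CPM, at 2.54 ± 1.94 (edgeR adjusted p = 0.999). TAF9.258, shifted by 2 bases from it, averaged 185 CPM in untreated and 212 CPM in AZA cells. TAF9 overlaps the gene AK6 on the same strand, and which of its hairpins bind both transcripts was not examined.

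TAF10 had the most uneven untreated libraries of the set, with 6 of 8 hairpins varying by more than 10-fold among them. TAF10.530 stood at 0.0813, 0 and 55.4 CPM in untreated and at 62.5, 88.0 and 68.0 CPM in AZA cells. The groups did not overlap, but the untreated value rested on replicate 3, and the log2 fold change was 1.98 ± 1.96, or 8.33 with the replicate block (edgeR adjusted p = 0.999 and 0.843). The mean over TAF10's hairpins was 0.01 ± 1.02 (SD), 1.24 with the block and -0.27 without TAF10.530. TAF12.1039 had 174, 113 and 81.5 CPM in untreated and 74.4, 68.3 and 49.9 CPM in AZA cells, without overlap, at -0.94 ± 0.69.

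TAF9B, a paralog of TAF9 encoded on the X chromosome, had sums of 970, 935 and 954 CPM in untreated and 889, 1000 and 792 CPM in AZA cells. The untreated sums were the closest together of the 13 genes, and the log2 fold change was -0.09 ± 0.22 (edgeR adjusted p = 0.900). TAF9B.2274 had the smallest p of the gene, with 26.2, 126 and 157 CPM in untreated and 113, 248 and 302 CPM in AZA cells. AZA was higher in 3 of 3 cultures on overlapping groups, at 1.10 ± 0.68.

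Hairpins that bind nearly the same stretch of a transcript allowed the values to be compared within a target. By their numbers, 27 pairs of member hairpins in 10 genes overlapped, and of the 25 pairs with both tested, 10 had log2 fold changes of the same sign. Of the 8 pairs shifted by 1 or 2 bases, 5 did. TADA1.1912 and TADA1.1913 averaged 462 and 527 CPM in untreated and 366 and 434 CPM in AZA cells. TADA1.2095 and TADA1.2096 averaged 413 and 237 CPM in untreated and 550 and 322 CPM in AZA cells. Both TADA1 pairs went the same way. Among pairs that did not, TAF12.1092 and TAF12.1093, shifted by 1 base, averaged 311 and 242 CPM in untreated cells. Their log2 fold changes were -0.01 and 0.27, and those of TAF9B.562 and TAF9B.563, also shifted by 1 base, were 0.14 and -0.14. TAF10.528 averaged 149 and 88.7 CPM where TAF10.530, shifted by 2 bases, averaged 18.5 and 72.8 CPM. The share of same-sign pairs over all hairpins of the pool was not counted.

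Related complexes in the same pool gave a frame for these values. From each list, the gene with the smallest p on summed counts is named. The deubiquitinase module of SAGA, listed with the related USP27X and USP51 (6 genes in all), had a median hairpin log2 fold change of 0.03. Of these 6 sums 1 was called, that for ATXN7L3, an adaptor of that module. It was higher in AZA cells by 1.25 ± 0.17 on the log2 scale (edgeR adjusted p = 0.000151). TRRAP, the large scaffold shared with the TIP60 complex, gave a sum of 0.28 ± 0.29. Subunits of ATAC outside SAGA (4 genes) had a median of 0.24, with WDR5 at 0.66 ± 0.32, and TAFs of TFIID outside SAGA (3 genes) a median of -0.35, with TAF3 at -0.38 ± 0.24. None of the sums for TRRAP, WDR5 and TAF3 passed the test (edgeR adjusted p = 0.778, 0.406 and 0.575). Over 13 other lysine acetyltransferases the median was -0.10, and 1 of the 13 sums was called. That sum, for CREBBP, was lower by -1.39 ± 0.05 (edgeR adjusted p = 8.88e-15), with a mean over its hairpins of -0.76. The sums for KAT2A and KAT2B were at -0.14 ± 0.22 and -0.23 ± 0.17. With the replicate block the medians were 0.25 for the deubiquitinase module, 0.32 for TRRAP, 0.50 for the ATAC subunits, -0.0079 for the TFIID TAFs and 0.015 for the other acetyltransferases, beside 0.33 for the members. The differences between these groups of genes and the 13 members were not tested.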

How the data were processed

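The authors amplified guide strands from genomic DNA by PCR, sequenced them and deposited raw counts per hairpin, 1 file per sample. Submitters' notes name CASAVA 1.9 and GRCh37. The tool for matching reads to the library was not given in the sources used here. Without molecular identifiers, limits of detection cover counting error only. Hairpins absent from a file were set to 0.

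Groups and replicate numbers came from sample titles. Counts were scaled by library totals. The 7262 hairpins that exceeded a CPM of 0.5 in 3 or more libraries were tested with the edgeR 4.0.16 quasi-likelihood test (limma 3.58.1, R 4.3.3), treatment being the only term, with Benjamini-Hochberg adjustment over all of them. A second fit used counts summed per gene over 912 genes. Standard errors are the absolute log2 fold change over the square root of F. P-values and standard errors rest on the spread between 3 libraries per group, estimated with information shared across all tested hairpins or genes. They are therefore not a measure of the spread of a single hairpin or gene alone. The pairing by culture enters only the fits with the replicate block. The tests were checked on simulated data. The alternatives were TMM, DESeq2 1.42.0 size factors and Wald test, the edgeR exact test, no filter, CPM above 10, leaving out each library or the most abundant hairpin of each gene, and the replicate block. Gene means without the most extreme hairpin were chosen after seeing the data.

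Each culture was divided into both groups, as the treatment protocol in the labels states, so replicate numbers pair the samples. Deviations of log2 CPM from the group means correlated at 0.125, 0.115 and 0.140 between same-numbered libraries and at -0.0978 to -0.0231 between others. Counts of libraries within a group differed by much more than sampling noise, at a chi-square of 439 to 909 per degree of freedom.

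Named were all 13 genes, every hairpin of KAT2A, KAT2B and CCDC101, the hairpin with the smallest p of each other gene, members at an unadjusted p under 0.05 and a member at 0 throughout a group; further hairpins were named after their values were seen, being those without overlap between groups or with overlapping sites. Members and lists were chosen with earlier results of these data known. In each list set beside the members, the gene with the smallest p on summed counts was named. Guides were matched to GENCODE release 44 transcripts. Hairpin numbers served as site positions: of the 1987 guides of 250 genes held here 1953 matched, and in 316 of 316 nearby pairs the distance between sites equalled that between numbers.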

Additional observations from a re-analysis of the deposited data

How the results depend on the processing

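The count of 0 member hairpins and 0 member genes past the threshold stayed at 0 under every alternative run. The members' median log2 fold change was 0.13 on library totals, -0.047 with TMM, -0.059 with DESeq2 size factors and 0.33 with the replicate block, where all hairpins had 0.07, -0.10, -0.12 and 0.24. Genes with a positive mean over hairpins numbered 11 of 13 (569 of all 912 genes), 7 with TMM and 7 with DESeq2 size factors (407 and 401 of all) and 12 with the replicate block (746 of all). Without 1 library they numbered 8 to 10 (537 to 642 of all). By the median over hairpins 9 of the 13 were positive, and the share over all genes was not counted. Members without overlap between groups numbered 13, and 19 to 32 (18.4% to 31.1%) when 1 library was left out, where 20.4% to 27.9% of all hairpins did so, since fewer values must then separate. Several summed log2 fold changes near 0 changed sign: CCDC101 to 0.021 with the replicate block and 0.10 without its most abundant hairpin, and TAF9 to -0.041 without its most abundant hairpin. Leaving out 1 library gave -0.239 to 0.199 for CCDC101, -0.012 to 0.209 for TADA1, -0.079 to 0.389 for TAF9, -0.217 to 0.0062 for KAT2A, -0.265 to 0.0075 for TAF10 and -0.124 to 0.039 for TAF12. It kept the sign but moved the value by over 1.5 times for TADA3 (0.193 to 0.678), TAF6L (0.114 to 0.526), SUPT7L (0.067 to 0.239), KAT2B (-0.387 to -0.124), TAF9B (-0.181 to -0.013) and TADA2B (0.00096 to 0.577). The cause was not tested. Pairing by the replicate block changed no call. Untreated libraries below 1 CPM limit what the fold changes of single hairpins can show.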
